A study of Gallus gallus with 15 samples.

Results

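Amino acid transporter genes were followed in liver RNA of male chickens, all 13 weeks old, from 5 breeds. The group was defined by gene symbol, with earlier results of these data known. It took the array features whose platform annotation gives exactly 1 symbol of the SLC1A, SLC3A, SLC6A, SLC7A, SLC36A, SLC38A or SLC43A families. SLC7A10, a carrier of small neutral amino acids, was left out by the same rule. This gave 43 of 18308 features for 42 genes, of 11528 genes named on the array, and the feature with the higher mean stood for SLC6A8, the only gene with 2. The families held 16 SLC6A, 10 SLC7A, 7 SLC38A and 6 SLC1A genes, and 1 gene each of SLC3A, SLC36A and SLC43A. Another 2 features of these families carry several symbols and were not used here. The native Korean breeds were Yeonsan Ogye, coded Og, Hyunin Black, coded Bl, Hwangbong, coded Hw, and Hoengseong Yakdak, coded Ya. White Leghorn, coded WL, was the control breed, and each breed had 3 birds with 1 array per bird. Eggs came from local farms, and the chicks were kept with free access to feed at a university farm. The labels give no treatment or altered allele for any group and do not say which farm supplied which breed, so breed and farm of origin cannot be told apart. A bird is called by its breed code and number, such as WL 1.

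Free amino acids cross the hepatocyte membrane on carriers that couple them to sodium, to protons or to the exchange of another amino acid. The liver takes up glutamine, alanine and other neutral amino acids for glucose and nitrogen metabolism, and birds send surplus nitrogen into uric acid. In mammals, where most of these roles were worked out, cationic amino acids enter through uniporters of the SLC7 family, and several SLC7 light chains reach the membrane only when bound to a glycoprotein heavy chain, SLC3A1 or SLC3A2. SLC3A2 was not among the named features, so its level was not analysed here. The roles given below are those known from mammals.

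Levels are log2 values from RMA, the array method that corrects background, normalises between arrays and summarises probes. Array medians lay between 6.12 and 6.20, and correlations between arrays lay between 0.977 and 0.991. Probes of different genes bind differently, so levels are compared between breeds and not between genes. As a rough guide to low levels, 20 genes of eye, brain and muscle had a median of 3.85 and an upper quartile of 4.52. Means of 14 transporters over the 15 birds lay at or below that quartile, called the low range here, where these data do not separate signal from background. The other 28 lay above it. The guide genes reached further, with a 90th percentile of 5.99 and a highest level of 6.84. At or below these levels lay 22 and 26 transporters. Some transporters above the quartile, such as SLC36A4 with a mean of 5.50, thus lay within the range of the guide genes. All 16 hepatocyte markers of the list were measured, with list means between 11.77 and 11.93 over the birds. Kidney and gut markers, as possible sources of epithelial transporters, had list means between 3.87 and 4.26. In whole liver, fewer cells of a type and less RNA per cell cannot be told apart.

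No transporter passed limma's moderated F test among the 5 breeds at an adjusted p under 0.05, 0 of 42 against 1.6% of all 18308 features. At an unadjusted p under 0.05 there were 8 of 42, against 16.1% of all features. In Yeonsan Ogye against White Leghorn 0 of 42 passed, against 0.191% of features, with 6 at an unadjusted p under 0.05 (9.14% of features) and 6 whose groups did not overlap (13%). In Hyunin Black 0 passed, against 0.164%, with 4 at an unadjusted p under 0.05 (11.7%) and 5 without overlap (16.3%). In Hwangbong 0 passed, against 0.579%, with 7 at an unadjusted p under 0.05 (12.9%) and 10 without overlap (18.7%). In Hoengseong Yakdak 0 passed, against 0.552%, with 4 at an unadjusted p under 0.05 (12.8%) and 7 without overlap (17.7%). For the native breeds averaged and set against White Leghorn 0 passed, against 0.432%, with 5 at an unadjusted p under 0.05 (12.2%) and 0 without overlap (1.34%).

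Pairs of native breeds gave 1 call in all, SLC36A4 between Hoengseong Yakdak and Hwangbong, where 1.46% of features passed. The other pairs gave 0 of 42, where 0.317% of features passed between Hoengseong Yakdak and Yeonsan Ogye, 0.295% between Hoengseong Yakdak and Hyunin Black, 0.317% between Hwangbong and Yeonsan Ogye, 0.371% between Hwangbong and Hyunin Black, and 0.0492% between Hyunin Black and Yeonsan Ogye. With 42 members, counts of 0 and 1 are near these backgrounds. The 95% interval of a breed difference reached 0.42 log2 units to either side for the median transporter. For 29 of 42 genes all 4 intervals against White Leghorn lay within 2-fold, and for the other 13 at least 1 interval reached further. All genes of the low range except SLC38A11 and SLC7A9 were among the 29, and a narrow interval there need not bound a change in RNA.

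Transporters of the heteromeric group, with 7 measured genes, included the widest gap between breeds. SLC7A7 encodes a light chain that exchanges cationic for neutral amino acids, and in humans its loss causes lysinuric protein intolerance. Its levels were 5.77, 7.19 and 6.59 in Yeonsan Ogye, 6.30, 7.54 and 6.71 in Hyunin Black, 7.18, 7.26 and 7.18 in Hwangbong and 7.70, 6.84 and 7.24 in Hoengseong Yakdak, against 5.17, 5.27 and 6.36 in White Leghorn. All birds of Hwangbong and Hoengseong Yakdak lay above all White Leghorn birds, whereas WL 3 lay above Og 1 and Bl 1. The difference from White Leghorn was 1.66 ± 0.39 (SE) log2 units in Hoengseong Yakdak, a ratio of 3.16 (adjusted p = 0.0749, 95% interval 0.82 to 2.49). It was 1.61 ± 0.39 in Hwangbong (adjusted p = 0.0826), 1.25 ± 0.39 in Hyunin Black (adjusted p = 0.222) and 0.92 ± 0.39 in Yeonsan Ogye (adjusted p = 0.491, and 0.58 without Og 2). The native mean minus White Leghorn was 1.36 ± 0.31 (adjusted p = 0.0813), and the F test over breeds gave F = 6.06 (adjusted p = 0.12). None of these passed. Without WL 3 the Hoengseong Yakdak difference was 2.04 (adjusted p = 0.0483), and without Og 1 the native mean difference was 1.45 (adjusted p = 0.0429), while without WL 1 they were 1.45 (adjusted p = 0.217) and 1.15 (adjusted p = 0.305). With array weights Hwangbong (adjusted p = 0.0432) and the native mean (adjusted p = 0.0489) passed. Of 25 alternative fits, Hoengseong Yakdak passed in 1, Hwangbong in 1 and the native mean in 2.

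Blood phagocytes also use SLC7A7 in mammals, so macrophage markers are given beside it. Of 10 markers 5 were measured, with means between 5.70 and 11.05 and none at 0. The list mean per bird lay between 8.73 and 9.02 in Yeonsan Ogye, 8.88 and 9.39 in Hyunin Black, 9.05 and 9.12 in Hwangbong, and 8.89 and 9.05 in Hoengseong Yakdak, against 8.99 and 9.07 in White Leghorn. The list means overlapped White Leghorn in every native breed, and the median difference of the 5 markers was 0.22 in Hwangbong and -0.08 in Hoengseong Yakdak. Single markers went different ways, and 0 were called. C1QC stood at 11.27, 11.34 and 11.46 in Hwangbong and 11.13, 11.05 and 11.09 in Hoengseong Yakdak. In White Leghorn it stood at 10.63, 10.96 and 10.81, without overlap. TIMD4 was also higher on average in both breeds, and MARCO only in Hwangbong. MRC1 and LYZ were lower in both, LYZ with differences of -0.66 in Hwangbong and -0.53 in Hoengseong Yakdak. Endothelial markers, with 7 of 9 measured and 0 called, had list means between 7.77 and 8.08 in Yeonsan Ogye, 8.01 and 8.24 in Hyunin Black, 8.08 and 8.22 in Hwangbong, and 7.96 and 8.15 in Hoengseong Yakdak, against 7.92 and 7.96 in White Leghorn. Hyunin Black and Hwangbong lay above White Leghorn without overlap. In Hwangbong PECAM1 differed by 0.55 (adjusted p = 0.0855) and CDH5 by 0.48 (adjusted p = 0.143). STAB1 differed there by 0.38, TIE1 by 0.29, STAB2 by 0.12 and KDR by 0.02, whereas VWF lay lower, at -0.32. T and NK cell markers, with 8 of 9 measured and 0 called, had list means between 6.22 and 6.45 in Yeonsan Ogye, 6.37 and 6.61 in Hyunin Black, 6.45 and 6.74 in Hwangbong, and 5.94 and 6.42 in Hoengseong Yakdak, against 6.27 and 6.42 in White Leghorn. Only Hwangbong lay above White Leghorn without overlap. Of 9 red cell markers 5 were measured and 0 called. One of them, the globin gene HBAD, lay between 9.23 and 11.01 in the native birds, against 8.85 and 9.06 in White Leghorn, and the native mean difference was 1.22 ± 0.27 (adjusted p = 0.0743). The mean of the other 4 red cell markers overlapped White Leghorn in Hyunin Black, Hwangbong and Hoengseong Yakdak and lay above it in Yeonsan Ogye, between 5.02 and 5.23, against 4.90 and 5.01 in White Leghorn. The part of these cells in the SLC7A7 and SLC7A6 values was not tested.

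SLC7A6 encodes the related light chain of most non-epithelial cells. Its levels were 6.32, 6.42 and 7.01 in Yeonsan Ogye, 7.37, 6.72 and 7.08 in Hyunin Black, 7.30, 7.33 and 7.41 in Hwangbong and 7.28, 6.96 and 7.28 in Hoengseong Yakdak, against 6.90, 6.68 and 6.49 in White Leghorn. Hwangbong and Hoengseong Yakdak lay above White Leghorn without overlap, and Hwangbong also lay above Yeonsan Ogye without overlap. Hwangbong exceeded White Leghorn by 0.66 ± 0.19 (adjusted p = 0.152) and Yeonsan Ogye by 0.76 ± 0.19 (adjusted p = 0.121). Without Og 3 the second difference was 0.97 and passed (adjusted p = 0.0489), the only alternative fit in which SLC7A6 passed. The F test (F = 5.67, adjusted p = 0.134) did not pass with all arrays.

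SLC3A1 is the heavy chain of cystine and cationic amino acid exchange. It stood at 8.99, 8.46 and 8.68 in Yeonsan Ogye, 8.49, 8.12 and 8.64 in Hyunin Black, 7.60, 8.10 and 7.94 in Hwangbong and 8.53, 8.73 and 9.01 in Hoengseong Yakdak, against 8.82, 7.92 and 8.49 in White Leghorn. The 3 Hwangbong birds lay below every bird of the other native breeds, and WL 2 lay among them. The difference between Hoengseong Yakdak and Hwangbong was 0.87 ± 0.23, a ratio of 1.83 (adjusted p = 0.0787). It passed in 1 of 25 alternative fits, without WL 2 (adjusted p = 0.0448), and its adjusted p reached 0.227 in the others. The SLC3A1 difference between Hwangbong and White Leghorn was -0.53 ± 0.23 (adjusted p = 0.343, and -0.32 without WL 1). Its light chain SLC7A9, in the low range, stood at 3.33, 2.76 and 2.86 in Yeonsan Ogye, 3.33, 3.35 and 3.44 in Hyunin Black, 3.33, 3.22 and 3.27 in Hwangbong and 2.89, 3.96 and 3.33 in Hoengseong Yakdak, against 3.47, 3.83 and 3.36 in White Leghorn. Yeonsan Ogye and Hwangbong lay below White Leghorn without overlap, and the difference in Yeonsan Ogye was -0.57 ± 0.22 (adjusted p = 0.443). Across the 15 birds the levels of SLC3A1 and SLC7A9 showed no relation that the permutation test could resolve (Pearson r = -0.0554, p = 0.838; Spearman rho = 0.139, p = 0.622). Leaving out the 2 birds farthest from the median of SLC3A1 gave r = 0.187, and deviations from breed means gave r = 0.0528. It was the only one of 6 listed chain pairs with both genes measured.

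SLC7A5, the main exchanger of large neutral amino acids, stood at 9.25, 9.75 and 8.66 in Yeonsan Ogye, 9.28, 9.06 and 9.10 in Hyunin Black, 9.65, 9.44 and 9.18 in Hwangbong and 9.73, 8.85 and 8.98 in Hoengseong Yakdak, against 8.60, 9.18 and 8.82 in White Leghorn. Birds of every native breed lay among the White Leghorn birds or, in Hwangbong, met the highest of them, and the native mean difference was 0.38 ± 0.21 (adjusted p = 0.501, and 0.24 without WL 1). SLC7A11, the cystine-glutamate exchanger that feeds glutathione synthesis, varied most within a breed. Its mean of 4.59 lay just above 4.52, the limit of the low range, and every breed had birds below that limit. SLC7A11 stood at 5.53, 6.99 and 3.59 in Yeonsan Ogye, 3.73, 4.28 and 4.14 in Hyunin Black, 5.99, 4.10 and 3.81 in Hwangbong and 5.06, 4.08 and 4.42 in Hoengseong Yakdak, against 4.94, 3.92 and 4.26 in White Leghorn. The Yeonsan Ogye birds spanned the whole range of the series, with an SD of 1.71. Their difference from White Leghorn was 1.00 ± 0.69 (adjusted p = 0.745), 0.19 without Og 2 and 1.89 without Og 3. SLC7A13 averaged 2.67, in the low range.

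**Figure D1:**
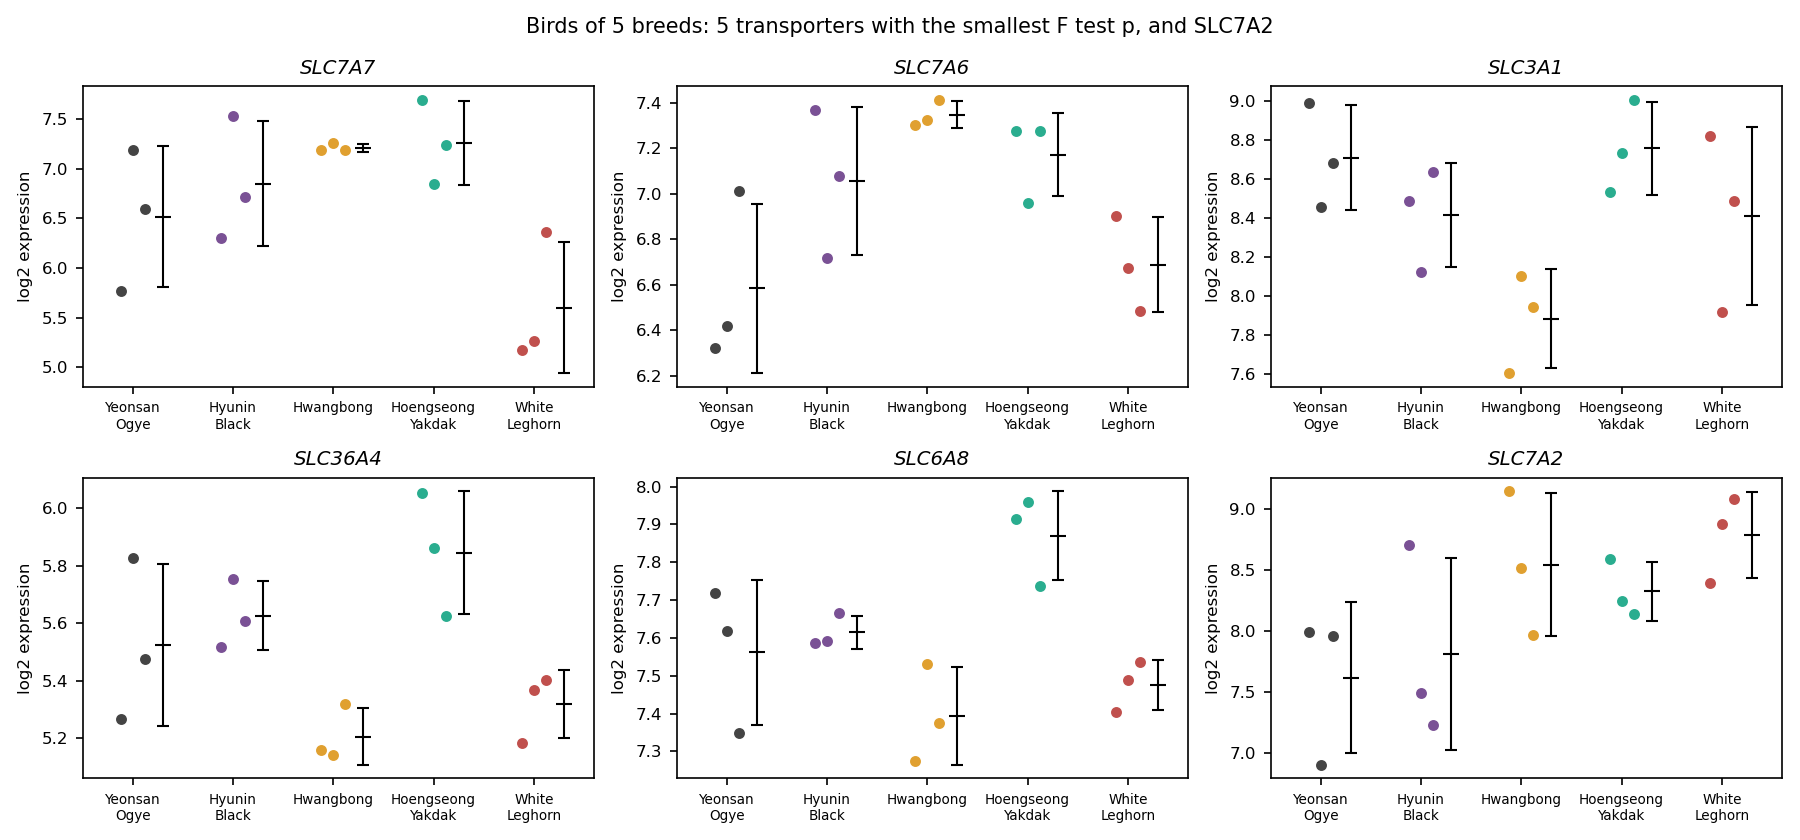
Log2 expression of 6 transporters by bird (points, 3 per breed), with the mean and SD of each breed as a black bar beside them; each panel has its own log2 axis, which does not start at 0. SLC7A7 lies between 7.18 and 7.26 in the Hwangbong birds and between 5.17 and 6.36 in White Leghorn, and SLC36A4 and SLC6A8 are highest on average in Hoengseong Yakdak.

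SLC36A4 belongs to the proton-coupled amino acid transporter family and carries proline and tryptophan. Its levels were 5.27, 5.83 and 5.48 in Yeonsan Ogye, 5.52, 5.75 and 5.61 in Hyunin Black, 5.16, 5.14 and 5.32 in Hwangbong and 6.05, 5.86 and 5.62 in Hoengseong Yakdak, against 5.18, 5.37 and 5.40 in White Leghorn. The Hoengseong Yakdak birds lay above all Hwangbong and all White Leghorn birds. SLC36A4 was higher in Hoengseong Yakdak than in Hwangbong by 0.64 ± 0.15, a ratio of 1.56 (adjusted p = 0.0469, 95% interval 0.33 to 0.95), the 1 call of this group. The difference of Hoengseong Yakdak from White Leghorn was 0.53 ± 0.15 (adjusted p = 0.132) and the F test gave F = 5.95 (adjusted p = 0.122). The call was lost without any 1 of WL 1, WL 2, WL 3, Og 3, the Bl birds, the Hw birds, Ya 1 or Ya 2, with adjusted p between 0.0502 and 0.157, and it held without Og 1, Og 2 or Ya 3. It was also lost with median centring (adjusted p = 0.0521), a further quantile normalisation (adjusted p = 0.0798) and only the 6 arrays of both breeds (adjusted p = 0.0805). The size kept between 0.54 and 0.75 in all of these fits. SLC43A2, a facilitative carrier of branched-chain amino acids and phenylalanine, showed no call. It stood at 8.44, 9.15 and 9.0 in Yeonsan Ogye, 8.73, 9.01 and 9.08 in Hyunin Black, 8.35, 9.14 and 9.08 in Hwangbong and 8.59, 8.99 and 9.02 in Hoengseong Yakdak, against 9.36, 8.91 and 9.22 in White Leghorn, and its breed means differed by at most 0.31 (F = 0.67, adjusted p = 0.826).

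Cationic amino acid uniporters numbered 4. SLC7A2, the low-affinity form of mammalian liver that supplies arginine, had a lower mean than White Leghorn in each native breed, in Hwangbong by the value of 1 bird. It stood at 7.99, 6.90 and 7.96 in Yeonsan Ogye, 8.71, 7.49 and 7.22 in Hyunin Black, 9.15, 8.52 and 7.97 in Hwangbong and 8.59, 8.24 and 8.14 in Hoengseong Yakdak, against 8.40, 8.88 and 9.09 in White Leghorn. Only the Yeonsan Ogye birds lay below all White Leghorn birds. The difference from White Leghorn was -1.17 ± 0.39 in Yeonsan Ogye (adjusted p = 0.369, 95% interval -2.01 to -0.33), -0.98 ± 0.39 in Hyunin Black (adjusted p = 0.348) and -0.71 ± 0.31 in the native mean (adjusted p = 0.374). It was smaller in Hoengseong Yakdak, at -0.46 ± 0.39, and in Hwangbong, at -0.24 ± 0.39. The Hwangbong difference was 0.05 without Hw 3 and -0.54 without Hw 1, so its direction changed with 1 bird. SLC7A1, the ubiquitous arginine and lysine carrier, had its largest difference from White Leghorn in Yeonsan Ogye, 0.84 ± 0.32 (adjusted p = 0.436, and 0.44 without Og 2). The birds there stood at 6.37, 7.50 and 6.18, against 6.01, 5.68 and 5.83 in White Leghorn, without overlap. SLC7A3, the related cationic carrier, stood at 7.48, 8.66 and 6.66 in Yeonsan Ogye, against 7.27, 6.85 and 6.75 in White Leghorn, with breed means that differed by at most 0.64 (F test adjusted p = 0.828). SLC7A14, a lysosomal relative, had breed means between 4.45 and 4.63.

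The SLC38 family, with 7 measured genes, moves glutamine, alanine and other neutral amino acids with sodium. SLC38A2 and SLC38A4 are neighbours in the chicken genome annotation, both of the alanine-preferring class, and SLC38A4 is best known from liver. SLC38A2 stood at 11.03, 11.30 and 10.44 in Yeonsan Ogye, 11.40, 11.08 and 10.85 in Hyunin Black, 10.93, 10.63 and 10.59 in Hwangbong and 11.73, 11.10 and 11.32 in Hoengseong Yakdak, against 11.48, 10.91 and 10.70 in White Leghorn. Hoengseong Yakdak lay above Hwangbong without overlap, by 0.66 ± 0.25 (adjusted p = 0.238), and the breeds otherwise overlapped White Leghorn. SLC38A4 stood at 11.28, 11.61 and 11.07 in Yeonsan Ogye, 11.64, 11.81 and 11.18 in Hyunin Black, 11.48, 11.30 and 11.23 in Hwangbong and 11.99, 11.38 and 11.43 in Hoengseong Yakdak, against 11.50, 11.87 and 11.55 in White Leghorn. Its breed means differed by at most 0.32 (F = 1.12, adjusted p = 0.69), and all its intervals against White Leghorn lay within 2-fold.

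SLC38A3, the sodium- and proton-coupled glutamine carrier of hepatocytes, was highest on average in White Leghorn. It stood at 10.24, 10.59 and 10.31 in Yeonsan Ogye, 10.70, 10.37 and 10.29 in Hyunin Black, 10.33, 10.84 and 9.99 in Hwangbong and 10.85, 10.47 and 10.23 in Hoengseong Yakdak, against 11.32, 10.97 and 10.54 in White Leghorn. WL 3 lay among the native birds. The native mean difference was -0.51 ± 0.19 (adjusted p = 0.279), -0.32 without WL 1 and -0.71 without WL 3. Og 1 and WL 1 left out together gave -0.31. SLC38A6, a less studied member, had means of 7.50 in Yeonsan Ogye, 7.62 in Hyunin Black, 8.07 in Hwangbong and 7.95 in Hoengseong Yakdak, against 7.66 in White Leghorn, and Hwangbong exceeded Yeonsan Ogye by 0.58 ± 0.18 (adjusted p = 0.222, and 0.34 without Og 1). SLC38A7, a lysosomal glutamine exporter, stood at 7.66, 7.90 and 7.63 in Hoengseong Yakdak, against 7.01, 7.34 and 7.25 in Hwangbong, a difference of 0.53 ± 0.14 (adjusted p = 0.0907). SLC38A9, the lysosomal arginine sensor of the mTORC1 pathway, had breed means between 7.35 and 7.64 (F test adjusted p = 0.838). SLC38A11, in the low range, stood at 2.44, 2.87 and 2.61 in Yeonsan Ogye, 2.70, 2.78 and 3.73 in Hyunin Black, 2.49, 3.54 and 2.66 in Hwangbong and 2.42, 2.86 and 2.35 in Hoengseong Yakdak, against 3.11, 3.17 and 2.86 in White Leghorn. Its difference in Hoengseong Yakdak was -0.50 ± 0.29 (adjusted p = 0.509), and the groups met at 2.86.

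**Figure D2:**
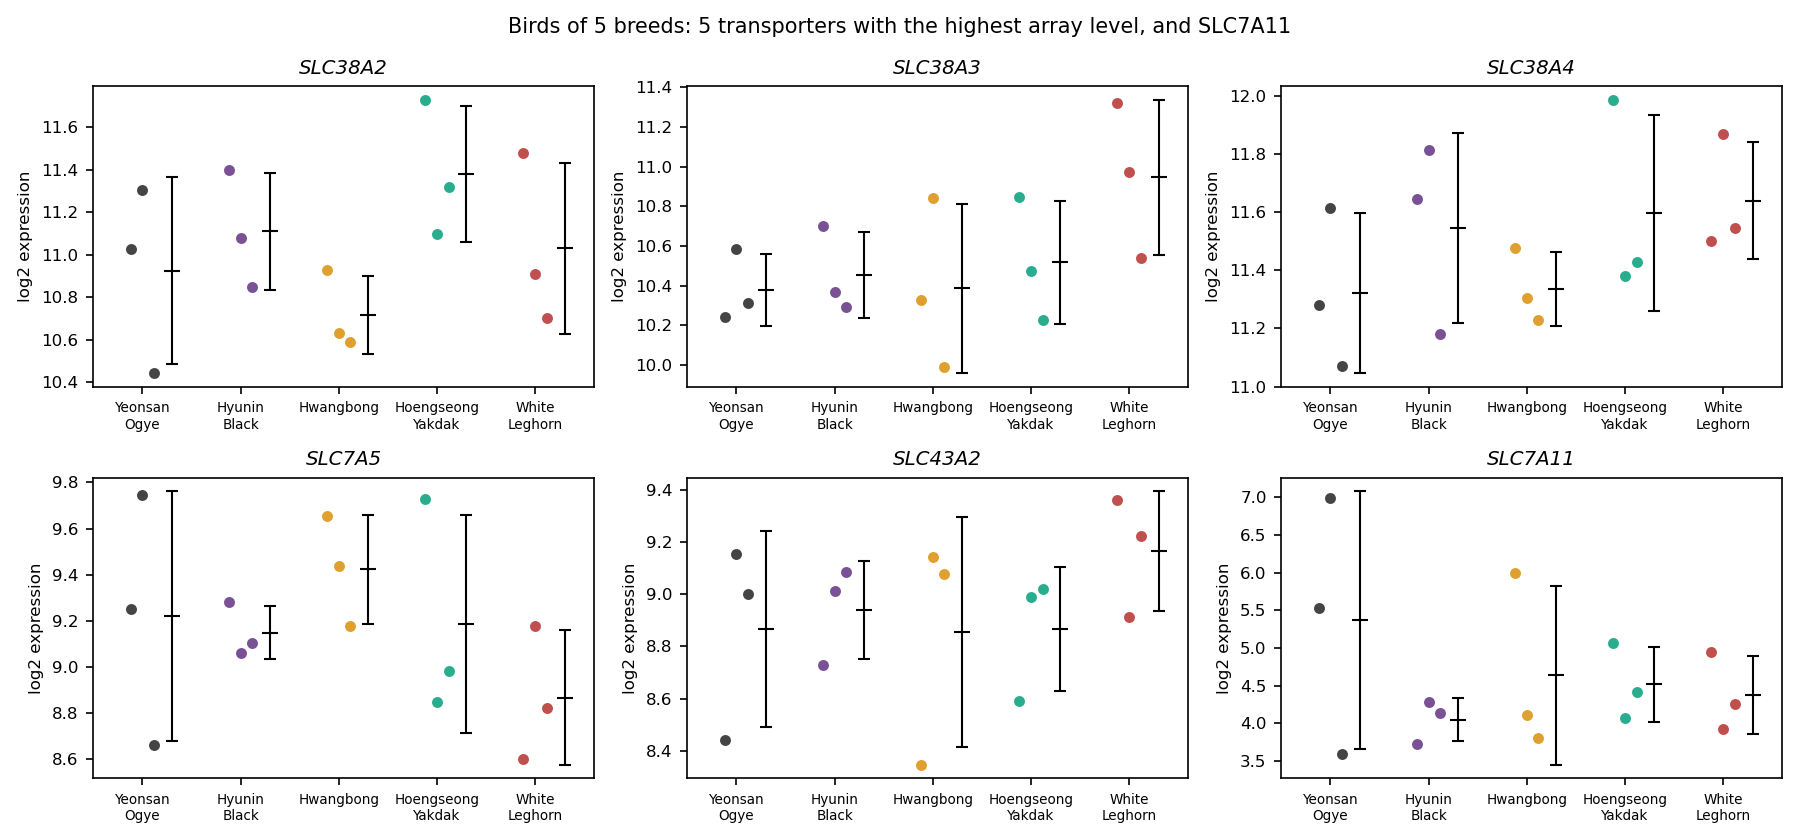
Log2 expression by bird (points, 3 per breed), with breed means and SD as black bars, for 5 transporters with the highest array level and for SLC7A11; each panel has its own log2 axis, which does not start at 0. The breeds overlap in most panels, and SLC7A11 runs between 3.59 and 6.99 among the Yeonsan Ogye birds.

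Sodium-coupled SLC1 carriers take up glutamate and aspartate or, for SLC1A4, alanine, serine and cysteine. Of 6 genes, 0 passed in the F test, with adjusted p of at least 0.449. SLC1A4 had its largest difference from White Leghorn in Hwangbong, 0.57 ± 0.20 (adjusted p = 0.231), where the birds stood at 6.36, 6.10 and 6.41, against 5.94, 5.57 and 5.66 in White Leghorn. Those groups did not overlap. SLC1A1, the widely expressed glutamate and cysteine carrier, had breed means between 6.14 and 6.52. SLC1A2, the glutamate carrier of astrocytes and perivenous hepatocytes, averaged 4.33, and with SLC1A3, SLC1A6 and SLC1A7 it lay in the low range.

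The SLC6 family couples sodium and chloride to its substrates, and not all of its members carry amino acids. Among 9 carriers of glycine, proline and neutral amino acids, 0 passed in any comparison. SLC6A9, a glycine carrier, stood at 6.74, 7.75 and 5.97 in Yeonsan Ogye, 6.01, 6.34 and 6.78 in Hyunin Black, 6.80, 6.06 and 5.32 in Hwangbong and 6.07, 6.68 and 7.34 in Hoengseong Yakdak, against 6.34, 5.71 and 5.31 in White Leghorn. Each native breed overlapped White Leghorn. The difference was 1.03 ± 0.46 in Yeonsan Ogye (adjusted p = 0.516, and 0.57 without Og 2), 0.91 ± 0.46 in Hoengseong Yakdak (adjusted p = 0.442, and 0.59 without Ya 3) and 0.70 ± 0.36 in the native mean (adjusted p = 0.474, and 0.46 without WL 3). SLC6A18 and SLC6A19, neighbouring neutral amino acid carriers of kidney and gut, averaged 2.96 and 3.11, and SLC6A5, SLC6A7, SLC6A15 and SLC6A20 also lay in the low range. SLC6A14 had breed means between 5.10 and 5.40 and SLC6A17 between 5.05 and 5.48.

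Carriers of osmolytes, creatine and GABA numbered 5. SLC6A8, the creatine transporter, stood at 7.72, 7.62 and 7.35 in Yeonsan Ogye, 7.59, 7.59 and 7.66 in Hyunin Black, 7.27, 7.53 and 7.38 in Hwangbong and 7.91, 7.96 and 7.74 in Hoengseong Yakdak, against 7.40, 7.49 and 7.54 in White Leghorn. On this feature the Hoengseong Yakdak birds lay above all other birds of the series. Their difference from Hwangbong was 0.48 ± 0.11 (adjusted p = 0.0543) and that from White Leghorn 0.39 ± 0.11 (adjusted p = 0.148). The F test gave F = 5.13 (adjusted p = 0.163). The difference from Hwangbong passed in 5 of 25 alternative fits, and its adjusted p reached 0.188 in the others. It passed without Og 1 (adjusted p = 0.0477) or Og 3 (adjusted p = 0.0407) and with array weights (adjusted p = 0.0402). The other passes were with trended and robust variances (adjusted p = 0.0409) and with the features of lowest mean left out (adjusted p = 0.0349). The other feature of the gene gave a difference between Hoengseong Yakdak and Hwangbong of 0.32 ± 0.16 (adjusted p = 0.449). There the Hoengseong Yakdak birds, at 7.07, 7.36 and 6.92, overlapped every other breed (F test adjusted p = 0.708). With the mean of both features the difference did not pass.

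SLC6A6, the taurine carrier, had breed means between 8.70 in Yeonsan Ogye and 9.20 in Hwangbong (F test adjusted p = 0.468). SLC6A12 carries betaine and GABA and lies beside SLC6A13, a GABA carrier of mammalian liver, in the chicken annotation. SLC6A12 stood at 7.14, 7.33 and 7.77 in Yeonsan Ogye, 7.50, 7.19 and 7.58 in Hyunin Black, 6.25, 7.33 and 7.35 in Hwangbong and 6.77, 7.03 and 7.79 in Hoengseong Yakdak, against 6.82, 6.61 and 7.03 in White Leghorn. The difference was 0.60 ± 0.30 in Hyunin Black (adjusted p = 0.452). SLC6A13 stood at 5.14, 4.50 and 5.03 in Yeonsan Ogye, 4.44, 4.54 and 4.42 in Hyunin Black, 4.71, 4.67 and 4.83 in Hwangbong and 4.59, 5.14 and 4.47 in Hoengseong Yakdak, against 5.13, 5.24 and 4.79 in White Leghorn. The difference was -0.59 ± 0.19 in Hyunin Black (adjusted p = 0.234). Neither gene overlapped between Hyunin Black and White Leghorn, and the neighbours lay on opposite sides of White Leghorn. The Hyunin Black mean of SLC6A13, 4.47, lay under 4.52, the limit of the low range. SLC6A11, a GABA carrier of brain, averaged 3.69. Of the monoamine carriers, SLC6A4, which takes up serotonin, had breed means between 7.20 in Hwangbong and 7.89 in Hyunin Black, and SLC6A2, which takes up noradrenaline, between 5.16 and 5.40.

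Hoengseong Yakdak was set against Hwangbong because it held the 1 call and the most genes past an unadjusted p of 0.05, 9 of 42, against 13.2% of all features. Of these, 8 lay higher in Hoengseong Yakdak, and they were SLC36A4, SLC6A8, SLC3A1, SLC38A7, SLC6A19, SLC38A2, SLC1A3 and SLC6A4. The other, SLC6A6, lay lower by 0.42 ± 0.19 log2 units (adjusted p = 0.356). Of the 9, SLC6A19 and SLC1A3 lay in the low range. Over all 42 genes, 21 lay above 0 and 21 below, with a median difference of -0.0011, against 0.012 over all features. The groups did not overlap for 11 of 42 genes, against 19.6% of all features.

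**Figure D3:**
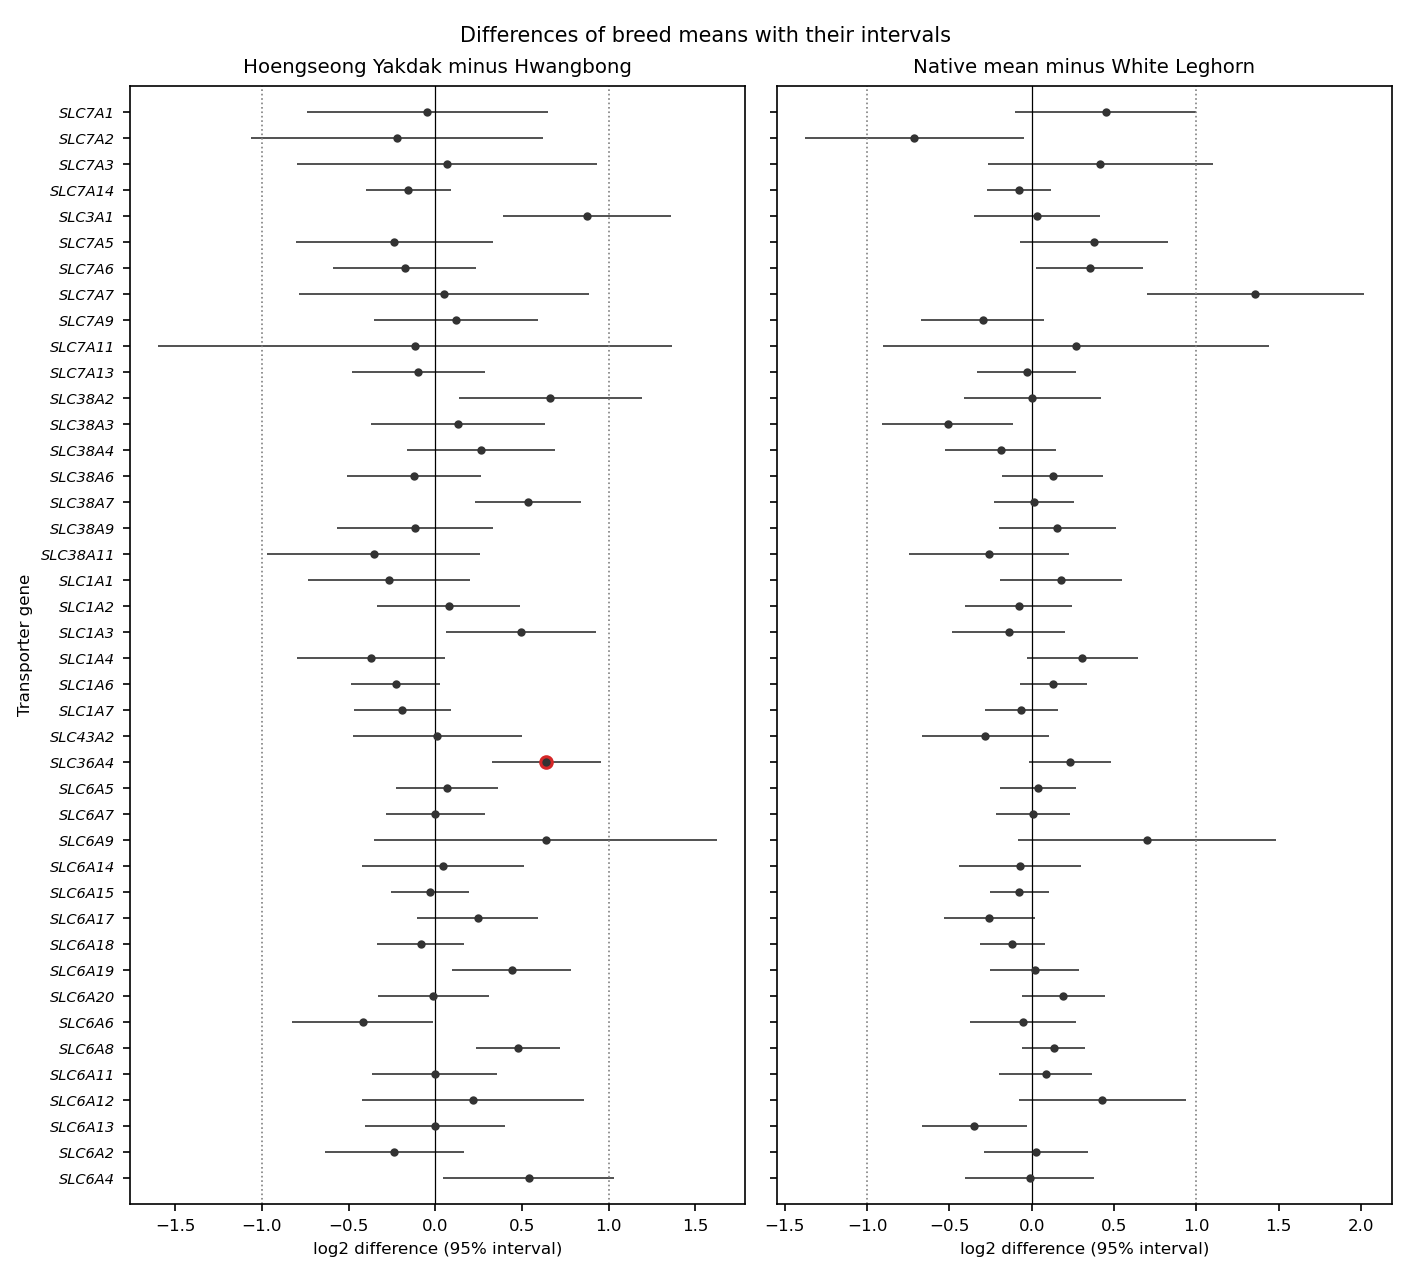
Differences of log2 means with 95% intervals for all 42 transporters, Hoengseong Yakdak minus Hwangbong on the left and the native mean minus White Leghorn on the right; dotted lines mark 2-fold and the red point marks the 1 difference past the threshold. SLC36A4 stands at 0.64 on the left, and on the right SLC7A7 stands at 1.36 with an interval of 0.70 to 2.02.

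Read across the group, breed means differed by 0.49 log2 units at the median between the highest and the lowest breed, against 0.30 over all features, with a median SD of 0.26 among birds of a breed. A range above 2-fold was seen for 4 genes, SLC7A7, SLC7A11, SLC7A2 and SLC6A9, or 9.52%, against 3.59% of all features. Such ranges also widen with the spread among birds, as in SLC7A11 (F = 1.00, adjusted p = 0.723). The median SE of a breed's difference from White Leghorn was 0.15 log2 units over all features. The ranges were not scaled by the spread among birds, so they do not show larger breed differences in transporters. In the F test, which takes this spread into account, 8 of 42 had an unadjusted p under 0.05, against 16.1% of features. The lowest range was 0.07, in SLC6A7. White Leghorn had the lowest mean for 12 genes and the highest for 10, and Hwangbong the lowest for 11 and the highest for 10. Against White Leghorn, 12 genes lay higher and 10 lower in all 4 native breeds, where the shares over all features were 20% and 22.8%. These comparisons share the White Leghorn birds. Median differences from White Leghorn over the 42 genes were 0.0043 in Yeonsan Ogye, 0.0093 in Hyunin Black, -0.0055 in Hwangbong and 0.11 in Hoengseong Yakdak. The medians over all features were -0.0078 in Yeonsan Ogye, -0.0011 in Hyunin Black, -0.012 in Hwangbong and -0.0048 in Hoengseong Yakdak.

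**Figure D4:**
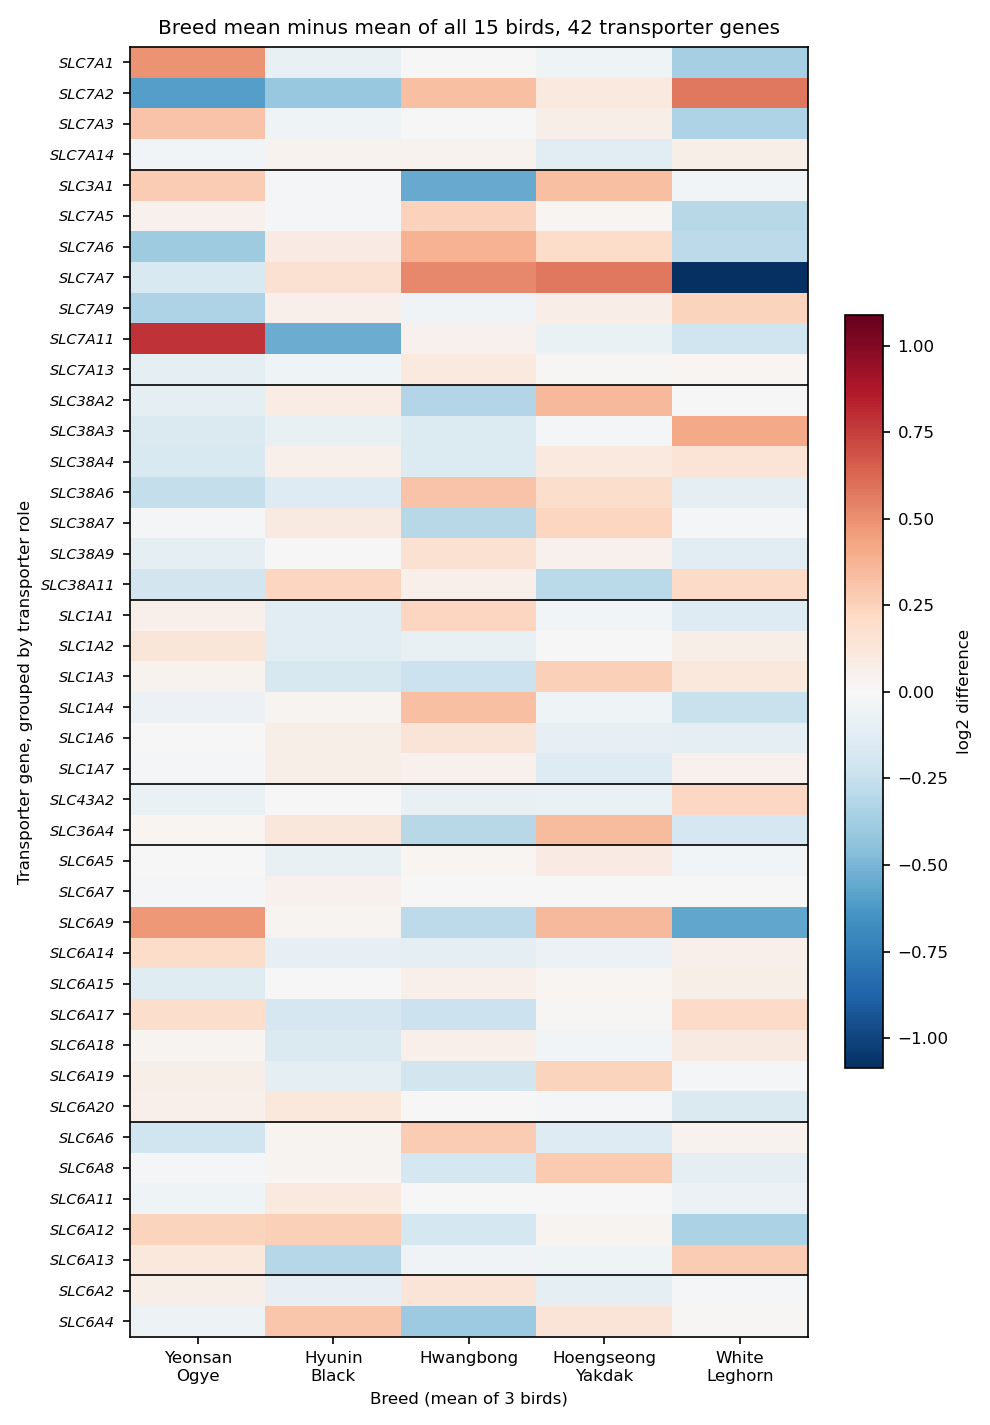
Breed means of the 42 transporter genes as log2 differences from the mean of all 15 birds, with rows grouped by transporter role and breeds in columns. The darkest cells are SLC7A7 in White Leghorn, with a mean of 5.60 against an overall 6.69, and SLC7A11 in Yeonsan Ogye, with 5.37 against an overall 4.59.

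Genes around the transporters were read from lists. Of 33 genes of the amino acid response, the programme driven by the kinase EIF2AK4 and the factor ATF4 when amino acids run short, 22 were measured. In comparisons with White Leghorn 0 rose and 1 fell, STC2, a secreted stress protein, at -1.89 ± 0.36 in Hwangbong (adjusted p = 0.0352). Its birds stood at 5.36, 5.60 and 6.93, against 8.44, 7.27 and 7.86 in White Leghorn. Median differences of the list lay between -0.02 and 0.11 in the 4 breeds. Of 29 genes of amino acid sensing by mTORC1, 19 were measured and 0 passed. The list mean per bird lay between 7.37 and 7.41 in Yeonsan Ogye, 7.43 and 7.48 in Hyunin Black, 7.37 and 7.40 in Hwangbong and 7.41 and 7.44 in Hoengseong Yakdak, against 7.26 and 7.31 in White Leghorn. No native bird overlapped White Leghorn in this mean, though all 4 comparisons share the White Leghorn birds. Among the other lists read here, the red cell list mean, with HBAD included, also lay above White Leghorn without overlap in all 4 native breeds. It lay between 5.86 and 6.39 in the native birds, against 5.74 and 5.80 in White Leghorn. Beyond the lists read here, how often means of gene lists separate in this way was not computed. The median difference of the mTORC1 list was 0.12 in Yeonsan Ogye, 0.20 in Hyunin Black, 0.13 in Hwangbong and 0.16 in Hoengseong Yakdak. Each lay above the median over all features. Most genes of the list lay higher, but DEPDC5 and FNIP1 had lower means than White Leghorn in all 4 native breeds. The list joins genes of different roles, and mTORC1 activity was not tested. Of 26 other amino acid and peptide carriers, 17 were measured and 0 passed. Their list mean per bird reached at most 6.628 in Yeonsan Ogye and 6.627 in Hyunin Black, just below the lowest White Leghorn bird at 6.630. It overlapped White Leghorn in Hwangbong and Hoengseong Yakdak. SLC16A10, a carrier of aromatic amino acids, had means of 8.14 in Yeonsan Ogye, 8.14 in Hyunin Black, 8.33 in Hwangbong and 8.08 in Hoengseong Yakdak, against 8.82 in White Leghorn (F test adjusted p = 0.166). In the same list SERINC5 went the other way (F test adjusted p = 0.0773). Its means were 7.76 in Yeonsan Ogye, 8.10 in Hyunin Black, 7.96 in Hwangbong and 8.19 in Hoengseong Yakdak, against 7.61 in White Leghorn.

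Other marker lists gave 0 calls against White Leghorn. The hepatocyte list mean reached at most 11.816 in Hoengseong Yakdak, just below the lowest White Leghorn bird at 11.821, and overlapped White Leghorn in the other breeds. List means over the birds lay between 7.57 and 8.37 for 5 markers of stellate cells and between 3.93 and 4.23 for 3 of pancreas, with overlap of every native breed and White Leghorn. The list mean of 3 B cell markers lay between 7.03 and 7.17 in Hoengseong Yakdak, against 7.24 and 7.52 in White Leghorn, without overlap. It overlapped White Leghorn in the other breeds. In Hoengseong Yakdak JCHAIN differed from White Leghorn by -0.72 and CD79B by -0.23, whereas BTK lay higher, by 0.12. The list mean of 5 kidney and gut markers lay below White Leghorn without overlap in Yeonsan Ogye, Hyunin Black and Hoengseong Yakdak. These list means, between 3.87 and 4.26 over the birds, all lay under 4.52, the upper limit of the low range. In Hoengseong Yakdak UMOD, AQP2, CDX2 and FABP2 lay lower on average, whereas SLC5A1 lay higher, at 4.44 against 4.39. The 5 bile duct markers overlapped White Leghorn in every native breed, with list means between 5.63 and 5.96 in Hwangbong, against 5.92 and 6.18 in White Leghorn. Of these SPP1, a secreted phosphoprotein, passed the F test (adjusted p = 0.0441), with means of 7.37 in Yeonsan Ogye, 7.74 in Hyunin Black, 6.77 in Hwangbong and 7.79 in Hoengseong Yakdak, against 7.60 in White Leghorn. SPP1 and SLC3A1 had their lowest mean in Hwangbong, whereas KRT7, SOX9 and EPCAM had theirs in Hyunin Black and CFTR in White Leghorn. The part of bile duct cells in the SLC3A1 values was not tested.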

How the data were processed

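The authors deposited log2 expression values per array feature, and the submitters' processing notes name RMA and Affymetrix Expression Console 1.3.1. How probes were grouped into features, and whether detection was called, is not given in the sources used here. No value was missing, and all 18308 features entered each fit. Symbols came from the platform annotation, and 40 of 42 members matched RefSeq by gene ID with the same symbol. The feature used for SLC6A8 carried no gene ID, and the gene ID of SLC38A7 found no match. List genes were matched by symbol, without synonyms. Probe sequences and breed variants under probes were not checked. Breed means of the 15 arrays were fitted with limma 3.58.1 in R 4.3.3 (lmFit, eBayes; 10 residual and 3.89 prior degrees of freedom), with an F test over the 5 breeds and 11 contrasts. P-values were adjusted by Benjamini-Hochberg over all features, two-sided, with calls at adjusted p under 0.05. The exact permutation test of 3 birds against 3 cannot go below 0.1. The number of arrays limits the precision. The chain pair was tested with 100000 permutations. The members and lists were chosen with earlier results of these data known. Any member could be named. Values per bird were given for members that passed, the 5 smallest F test p, the 5 highest means and the 2 largest differences each way from White Leghorn in each native breed and the native mean, and other values per bird were chosen after they were seen. The labels call the birds biological replicates, and no batch is given. The fit was tested on simulated data.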

Additional observations from a re-analysis of the deposited data

How the results depend on the processing

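With all arrays 0 transporters passed in the F test and against White Leghorn, and 1 between native breeds. The count between native breeds became 2 with trended and robust variances, with array weights and with the features of lowest mean left out. It became 0 with a further quantile normalisation, median centring, only the arrays of the compared breeds, and the replicate number as a block (SLC36A4 adjusted p = 0.0548). With array weights 1 transporter, SLC7A7, passed in Hwangbong and in the native mean against White Leghorn. Leaving out 1 array at a time gave 0 to 2 between native breeds, 0 to 1 for Hoengseong Yakdak and for the native mean against White Leghorn, and 0 to 0 for the F test and for Yeonsan Ogye, Hyunin Black and Hwangbong against White Leghorn. The replicate block changed no other count from 0. Of 30 same-numbered pairs of birds from different breeds, 8 had deviations correlated above 0.1, so the numbers were not taken as pairs. The median correlation was 0.0388 with the same number and -0.0151 with different numbers, and 8 of 15 birds correlated best with a bird of their own number, a hint from the data and not from the design. The correlation of SLC3A1 and SLC7A9 changed sign to 0.187 and 0.0528 in its 2 alternatives, with no p under the threshold in any. Of the 34 single-gene results followed through these settings, some were F values, which cannot be negative and so have no direction to change. The others were differences, mostly picked for their size, and none of them changed direction. Among other printed differences, SLC7A2 in Hwangbong against White Leghorn changed direction, at 0.05 without Hw 3. The cause of these shifts was not tested.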

Other observations

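One Yeonsan Ogye bird, Og 2, had the highest level of all 15 birds for 6 of 42 transporters, as did Ya 1, while WL 3 had it for 0. Og 2 also had the lowest level for 4 of 42, and Ya 1 for 1. The share of all features for which each bird was highest or lowest was not computed. Among the transporters highest in Og 2, SLC7A11 stood at 6.99, where the next bird, Hw 1, had 5.99. SLC7A1 stood at 7.50, where Bl 2 had 6.61, and SLC7A3 at 8.66, where Hw 1 had 7.83. SLC6A9 at 7.75, SLC7A5 at 9.75 and SLC6A14 at 5.69 were the others, the last pair by 0.018 and 0.043 log2 units over the next bird. In the same bird CHAC1, which degrades glutathione, stood at 10.64, ATF3, a stress-induced transcription factor, at 10.63, and ASNS, the asparagine synthetase, at 10.37. The other 14 birds had at most 9.09 for CHAC1, 9.53 for ATF3 and 10.08 for ASNS. ATF4 itself stood at 11.23 in Og 2 and 11.14 in Og 1, and the list mean of the amino acid response was 9.14 in Og 2, against 8.57 to 9.06 in the other birds. Other genes of that list went differently. STC2 stood at 7.32 in Og 2, against 8.44 in WL 1, and PSAT1, PHGDH and CTH had their lowest breed mean in Yeonsan Ogye. The genes named for Og 2 were picked after their values were seen, and the values describe 1 bird.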
